A study of Homo sapiens with 8 samples.

Results

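Esophageal cancer cells held in hypoxia with oxamate and lactate were compared with the same cells in normoxia, gene by gene. KYSE150 is an established human line of esophageal squamous cell carcinoma, and its poly(A)-selected RNA was sequenced in 8 libraries, 2 for each of 4 groups. The 2 libraries of the group labelled hypoxia+oxamate+NALA were set against the 2 normoxia libraries, which received no drug. The treatment protocol names sodium lactate, which NALA is taken to mean, and this group is called the lactate group here. Hypoxia without drug and hypoxia with sodium oxamate were the other groups, and all 3 hypoxic groups share the same normoxia controls. Dose, exposure time and oxygen tension were not stated in any source used here. The comparison covers all expressed genes, which were 15554 of the 61517 in the table, and uses 4 of the 8 libraries for its fold changes. The labels give no separate cultures for the libraries of a group, so the spread between its 2 libraries may be technical. Every p-value and standard error rests on that spread estimated over all 4 groups together. The chi-square per degree of freedom between the 2 libraries of a group, which grows with their difference, was 4.83 in the lactate group. It was 1.85 in normoxia, 2.11 in hypoxia and 2.03 with oxamate, so the shared estimate may be too small for the lactate group.

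Lactate dehydrogenase interconverts pyruvate and lactate, and oxamate is a pyruvate analogue that inhibits it. Cells short of oxygen stabilise the alpha subunits of hypoxia-inducible factor (HIF), which join ARNT and raise transcription of glycolytic enzymes, glucose transporters and angiogenic factors. Lactate leaves and enters cells through monocarboxylate transporters, and it can also be attached to lysines of proteins as lactylation. The title of the study names lactylation of HIF-1α and immune evasion under hypoxia. The lactate group therefore holds oxygen limitation, an inhibitor of lactate production and supplied lactate at the same time, and the comparison with normoxia cannot separate them. Tests of the lactate group against hypoxia alone and against oxamate alone are given beside it as tests of the difference.

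Library totals ranged from 21845676 to 29406061 counts, so 3 counts correspond to 0.102 to 0.137 CPM (counts scaled to a common library total). Levels below are CPM scaled by TMM, a factor that equalises most genes between libraries, and they compare a gene between groups but not genes of different length. Log2 fold changes carry a standard error from the quasi-likelihood test of edgeR, and a gene passed at a Benjamini-Hochberg adjusted p under 0.05. Against normoxia, 5589 genes (35.9%) were higher and 5719 (36.8%) lower in the lactate group. Against hypoxia alone the shares were 38.5% higher and 40.2% lower, and against oxamate alone 33.2% and 31.7%. Hypoxia alone against normoxia gave 36.7% and 36.8%, and oxamate in hypoxia against normoxia 31.9% and 40.1%. Passing changes of at least 2-fold numbered 1829 higher and 2770 lower against normoxia. The median log2 fold change of all tested genes against normoxia was -0.04 with TMM, -0.19 with upper-quartile scaling and -0.39 with library totals, so directions are relative to that choice. It was -0.05, -0.31 and -0.34 in that order against hypoxia alone, and -0.02 with TMM and -0.21 with upper-quartile scaling against oxamate alone. Counts and levels below are with TMM unless another scaling is named. Squamous markers were present, at 5061 and 5052 summed CPM of library totals in normoxia and 5599.9 and 5757 in the lactate group. The largest part was KRT5, at 1929 and 1929 CPM in normoxia and 1972 and 1993 in the lactate group. Of 19 tested, 14 were higher and 3 lower than in normoxia with TMM. SFN fell from 499 and 507 to 128 and 141 CPM of library totals. SOX2, at most 0.385 CPM in normoxia, was at 0 in both lactate libraries. Of 16 leukocyte markers, 7 to 11 were at 0 in each library, CD3D and CD8A in every library and PTPRC and CD4 in all but lactate replicate 1 (0.137 and 0.0458 CPM). LYZ had 33 counts (1.51 CPM) in lactate replicate 1 and at most 1 count in each other library. The summed leukocyte level of 42.3 and 47.0 CPM in normoxia and 92.1 and 95.3 in the lactate group was mostly CD68. The sum over fibroblast and endothelial markers was 5.26 and 4.91 CPM in the normoxia libraries and 2.79 and 2.86 in the lactate group. The part of these markers in the results was not tested.

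Both lactate dehydrogenase subunits were higher in the lactate group than in normoxia. Among 17 listed genes of lactate dehydrogenase and monocarboxylate transport, 14 were tested, and 8 were higher and 3 lower, with a median log2 fold change of 0.71. LDHA, whose subunit favours making lactate, measured 1331 and 1323 CPM in normoxia and 4526 and 4348 CPM in the lactate group, and 5658 and 5656 CPM in hypoxia and 2624 and 2611 CPM with oxamate. Its log2 fold change was 1.74 ± 0.026 against normoxia (edgeR adjusted p = 3.96e-23), -0.35 ± 0.025 against hypoxia alone (-0.61 with upper-quartile scaling and -0.63 with library totals) and 0.76 ± 0.026 against oxamate alone. Thus the lactate libraries lay between those of oxamate and of hypoxia alone. LDHB, whose subunit favours using lactate, measured 955 and 959 CPM in normoxia and 1728 and 1596 CPM in the lactate group, and 877 and 890.0 CPM in hypoxia and 2239.9 and 2199.7 CPM with oxamate. It rose by 0.80 ± 0.031 on the log2 scale against normoxia and was lower than with oxamate alone, at -0.42 ± 0.031.

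The transporters moved differently from one another. SLC16A1, which encodes MCT1, the importer and exporter of broad use, measured 213 and 211 CPM in normoxia and 348 and 344 CPM in the lactate group, and 203 and 207 CPM in hypoxia and 85.4 and 86.8 CPM with oxamate. The lactate libraries were the highest of all groups, with 0.71 ± 0.032 against normoxia and 2.01 ± 0.035 against oxamate alone. SLC16A3, which encodes the exporter MCT4, measured 50.035 and 52.1 CPM in normoxia and 97.4 and 103 CPM in the lactate group, and 300.3 and 295 CPM in hypoxia and 18.7 and 20.5 CPM with oxamate. It was 0.97 ± 0.046 above normoxia and -1.57 ± 0.041 against hypoxia alone, and 5.36% of its exon bases overlap the oppositely oriented CSNK1D, which unstranded counting could mix. PDK1, a kinase that holds pyruvate back from the mitochondrion, rose by 2.22. PDK3 of the same family fell (-1.15), and EMB, a partner protein of monocarboxylate transporters, fell (-0.65).

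**Figure D1:**
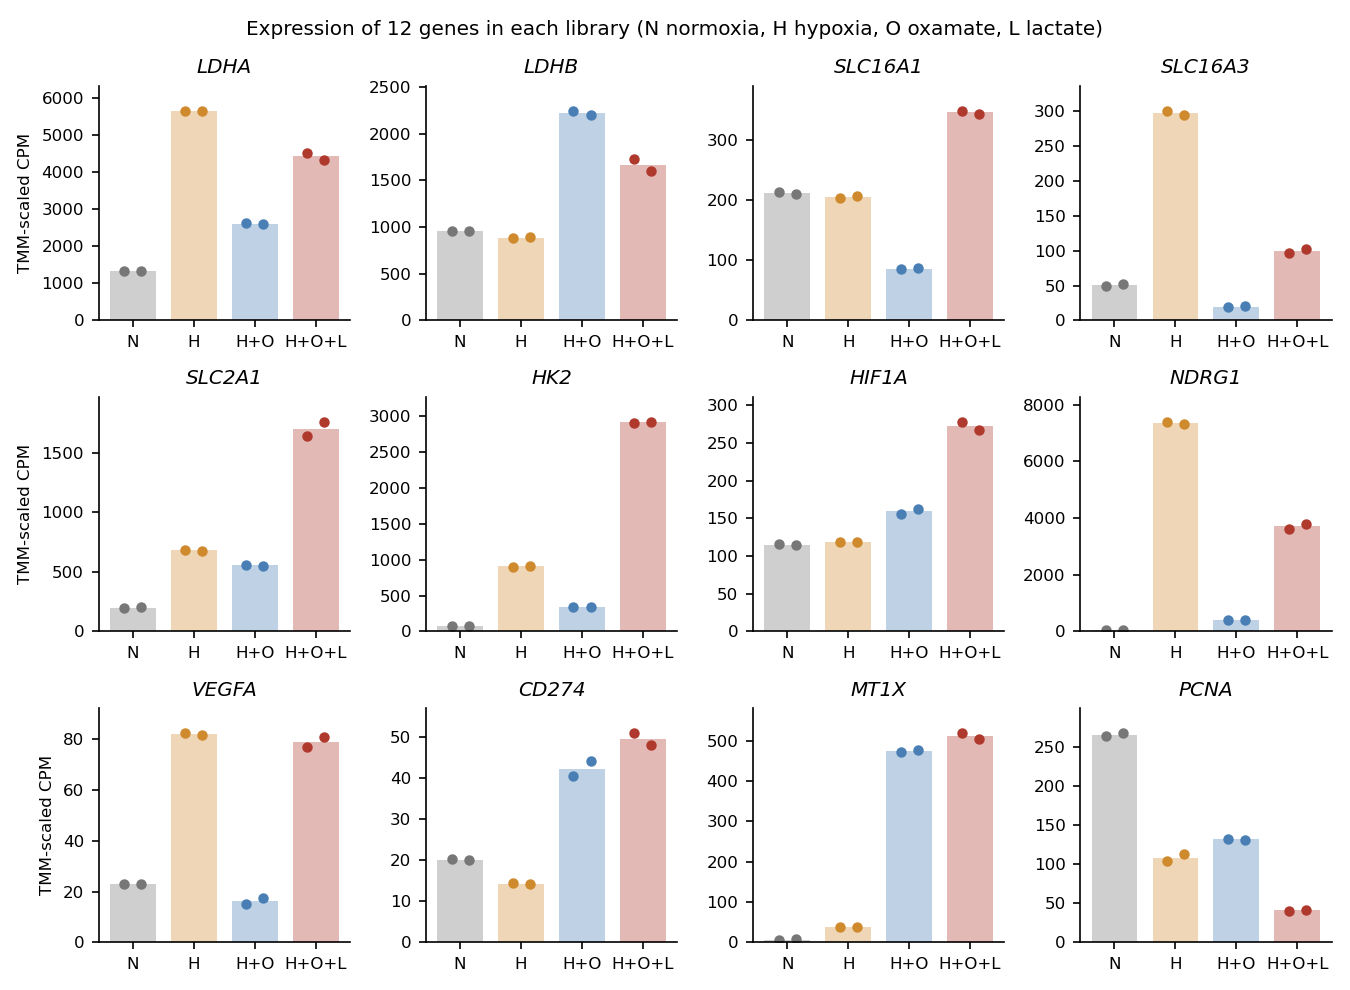
Scaled level in CPM (linear axis from 0) of 12 genes in normoxia, hypoxia, hypoxia with oxamate, and hypoxia with oxamate and lactate. Bars are group means and points are the 2 libraries of a group. SLC2A1 and HK2 are highest in the lactate group, LDHA and NDRG1 in hypoxia alone, and PCNA is lowest in the lactate group.

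Glycolytic genes were higher almost throughout. Of 21 genes tested, 20 were higher and 1 lower than in normoxia, with a median of 1.11 against -0.04 for all tested genes. HK2, the hexokinase that phosphorylates glucose on entry to the cell, lies on chromosome 2 from 74833981 to 74893359 of GRCh38 (plus strand). It measured 78.7 and 78.7 CPM in normoxia and 2910.4 and 2917 CPM in the lactate group, and 904 and 907 CPM in hypoxia and 336 and 340.0 CPM with oxamate. The lactate libraries were the highest of all 8, and the log2 fold changes were 5.21 ± 0.032 against normoxia, 1.69 ± 0.026 against hypoxia alone and 3.11 ± 0.028 against oxamate alone (edgeR adjusted p = 1.00e-29, 8.20e-23 and 3.12e-26).

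Glucose transporters followed different orders. SLC2A1, which encodes GLUT1, measured 198 and 203 CPM in normoxia and 1643 and 1756 CPM in the lactate group, and 687 and 674 CPM in hypoxia and 560.1 and 552 CPM with oxamate, so it too was highest in the lactate group, at 3.08 ± 0.034 against normoxia and 1.32 ± 0.031 against hypoxia alone. SLC2A3, which encodes GLUT3, measured 27.2 and 26.9 CPM in normoxia and 808 and 792 CPM in the lactate group, and 1491 and 1467 CPM in hypoxia and 98.2 and 91.8 CPM with oxamate. It rose by 4.89 ± 0.04 against normoxia but was lower than in hypoxia alone, at -0.89 ± 0.03. PFKFB2, which makes the activator of phosphofructokinase, was the member that fell, at -1.0003 on the log2 scale. Over the whole list, 5 genes were higher and 14 lower than in hypoxia alone, with a median of -0.33, and 16 were higher and 5 lower than with oxamate alone, with a median of 0.25. Upper-quartile scaling gave 3 higher and 15 lower against hypoxia alone (median -0.59), and 10 higher and 7 lower against oxamate alone (median 0.06). The glycolytic median against normoxia was 1.64 in hypoxia alone and 0.92 with oxamate alone.

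Transcripts of the oxygen-sensing machinery were higher for the HIF subunits. HIF1A, the regulated alpha subunit of HIF-1, measured 115 and 114 CPM in normoxia and 278 and 267 CPM in the lactate group, and 119 and 119 CPM in hypoxia and 156 and 162 CPM with oxamate. It rose by 1.25 ± 0.036 against normoxia, and the log2 fold change of hypoxia alone against normoxia was 0.05 ± 0.037 (edgeR adjusted p = 0.218). Its constitutive partner ARNT measured 31.6 and 28.6 CPM in normoxia and 57.3 and 65.7 CPM in the lactate group, and 46.1 and 47.3 CPM in hypoxia and 21.8 and 22.0 CPM with oxamate, a difference of 1.04 ± 0.066 from normoxia and 1.49 ± 0.07 from oxamate alone. EPAS1, the HIF-2 alpha subunit, rose by 1.25, and EGLN1, the main prolyl hydroxylase that marks HIF for destruction, by 1.93. HIF1AN, the asparaginyl hydroxylase that blocks binding of coactivators, fell (-1.98), as did VHL, the ubiquitin ligase subunit that recognises hydroxylated HIF (-0.97). Of 8 tested members, 5 were higher and 2 lower than in normoxia, and all 8 were higher than with oxamate alone (7 with upper-quartile scaling). EP300, a coactivator of HIF and an acyltransferase, measured 38.6 and 39.1 CPM in normoxia and 43.8 and 45.1 CPM in the lactate group, and its difference of 0.20 ± 0.062 passed with TMM (edgeR adjusted p = 0.00749). That call was lost with upper-quartile scaling (0.04, adjusted p = 0.546) and without normoxia replicate 1 (0.18, adjusted p = 0.0565), and the direction turned with library totals (-0.16).

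Known HIF targets outside glycolysis were higher nearly as a whole. Of 45 listed genes, 39 were tested, and 37 were higher than in normoxia, with a median log2 fold change of 1.93. RORA, at -0.97 ± 0.83, and LOX, at 0.98 ± 0.64, the other tested members, were under 1 CPM in these libraries and did not pass. The median against normoxia was 2.73 in hypoxia alone, with 36 higher and the rest not passing, and 0.15 with oxamate alone, with 18 higher and 10 lower, a split that turned to 15 higher and 19 lower with library totals. Tested directly, 36 members were higher and 1 lower in the lactate group than with oxamate alone, with a median of 2.01. Against hypoxia alone, 9 were higher and 26 lower, with a median of -0.74. These lists were drawn up with earlier results of these data known, so their direction is a description.

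The individual targets fell into different orders of the 3 hypoxic groups. NDRG1, a stress gene of differentiation, measured 32.7 and 40.0 CPM in normoxia and 3624 and 3787 CPM in the lactate group, and 7382 and 7331 CPM in hypoxia and 397 and 396 CPM with oxamate. It rose by 6.67 ± 0.073 against normoxia and stayed below hypoxia alone, at -0.99 ± 0.053. BHLHE40, a transcriptional repressor, measured 16.7 and 17.0 CPM in normoxia and 763 and 797 CPM in the lactate group, and 323 and 319 CPM in hypoxia and 371 and 365 CPM with oxamate, and was highest in the lactate group at 1.28 ± 0.031 against hypoxia alone. KDM3A, a histone demethylase, was also above hypoxia alone (1.46) and above normoxia (4.89). VEGFA, the angiogenic growth factor, measured 23.1 and 23.0 CPM in normoxia and 76.9 and 80.8 CPM in the lactate group, and 82.3 and 81.6 CPM in hypoxia and 15.1 and 17.3 CPM with oxamate. It rose by 1.77 ± 0.057 against normoxia, and its difference from hypoxia alone, -0.05 ± 0.049, did not pass with TMM (edgeR adjusted p = 0.324). VEGFA was lower than in hypoxia alone with upper-quartile scaling (-0.31, edgeR adjusted p = 4.91e-06), library totals (-0.34, adjusted p = 1.91e-06) and a stricter filter (-0.14, adjusted p = 0.0142). CA9, a membrane carbonic anhydrase, measured 5.73 and 6.99 CPM in normoxia and 17.2 and 19.8 CPM in the lactate group, and 243 and 248 CPM in hypoxia and 8.71 and 7.40 CPM with oxamate, so the lactate libraries were far closer to normoxia than to hypoxia alone. CA9 was 1.54 ± 0.10 above normoxia and -3.72 ± 0.063 against hypoxia alone, with 38.5% of its exon bases shared with ARHGEF39 on the other strand. ANKRD37, an ankyrin-repeat protein, measured 0.744 and 0.759 CPM in normoxia and 51.6 and 51.3 CPM in the lactate group, rose by 6.09 ± 0.11, and UFSP2 on the other strand covers 35.2% of its exons.

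**Figure D2:**
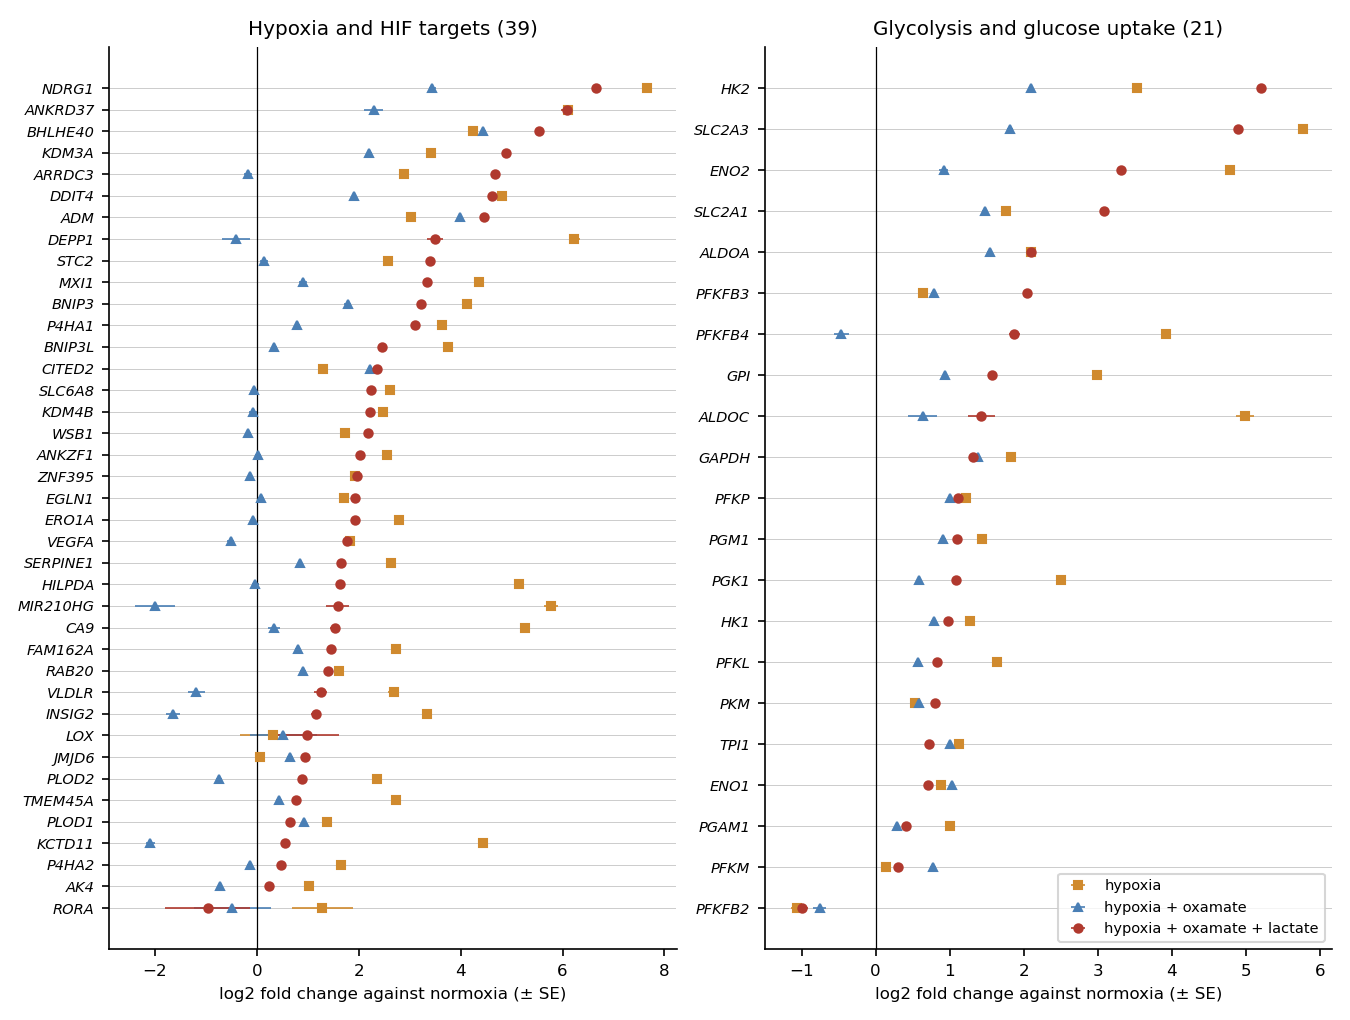
Log2 fold change against normoxia with its standard error for 39 tested hypoxia targets and 21 glycolysis genes in hypoxia, hypoxia with oxamate, and hypoxia with oxamate and lactate. For HK2 and BHLHE40 the lactate group is highest of the 3, for NDRG1 and CA9 hypoxia alone. The 3 sets share the normoxia libraries.

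The windows before annotated starts of HK2, DDIT4 and PER1 are shown because they hold the core of the hypoxia response element outside annotated exons and all 3 genes were higher in the lactate group than in normoxia and than with oxamate alone. They were picked for holding a match, and the listed window of SLC2A1, which rose as well, holds 0 matches. The HK2 window precedes the second of its listed starts and lies inside the annotated gene. DDIT4, a stress-induced inhibitor of mTORC1 named after its values were seen, rose by 4.62 ± 0.039 against normoxia and 2.71 ± 0.034 against oxamate alone, and was lower than in hypoxia alone (-0.20 ± 0.031, or -0.46 with upper-quartile scaling and -0.48 with library totals), unlike HK2 and PER1. PER1, a repressor of the circadian clock, is described with the largest changes. The core was searched as ACGTG or GCGTG on both strands and is in capitals. The palindrome CACGTG holds ACGTG on both strands, and overlapping matches were counted as 1 stretch. The sequences are from RefSeq (GRCh38.p14), read along each gene's strand, with bases in annotated exons left out. The HK2 window on the plus strand at chr2:74834920-74835169 holds 4 stretches, the DDIT4 window on the plus strand at chr10:72273674-72273919 holds 3, and the PER1 window on the minus strand at chr17:8152436-8152654 holds 1. The same letters occur in 43.2% of all 35116 promoter windows of this length and in 54.7% of the 15221 windows of tested genes. Only 10564 of 15548 tested genes have a window, so the second share describes the matched genes alone. A match is a description of the sequence and says nothing of binding.
HK2: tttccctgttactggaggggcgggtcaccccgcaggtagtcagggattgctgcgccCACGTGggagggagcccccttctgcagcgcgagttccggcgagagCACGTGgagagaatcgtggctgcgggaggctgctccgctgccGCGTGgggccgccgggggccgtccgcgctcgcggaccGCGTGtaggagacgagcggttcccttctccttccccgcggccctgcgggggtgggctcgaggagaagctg
DDIT4: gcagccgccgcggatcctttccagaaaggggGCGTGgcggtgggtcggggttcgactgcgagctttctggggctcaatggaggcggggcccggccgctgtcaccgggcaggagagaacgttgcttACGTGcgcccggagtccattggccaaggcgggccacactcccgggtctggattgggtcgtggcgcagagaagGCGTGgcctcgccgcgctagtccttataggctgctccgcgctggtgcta
PER1: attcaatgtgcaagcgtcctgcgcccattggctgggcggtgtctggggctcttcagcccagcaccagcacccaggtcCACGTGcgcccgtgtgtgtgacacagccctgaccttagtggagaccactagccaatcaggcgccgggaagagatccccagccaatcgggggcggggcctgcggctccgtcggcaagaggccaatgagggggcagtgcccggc

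Metallothioneins, small cysteine-rich proteins that bind zinc and copper, had the highest median of the lists. All 5 tested members of 10 listed were higher than in normoxia, with a fitted median of 5.15. MT1B had 28 counts in the lactate group, 18 with oxamate, 1 in hypoxia and 0 in normoxia. It could enter the test only through groups where it is high, so its direction was fixed by the filter. The median was 4.27 with MT1B set at 12.4-fold higher, its value against an assumed 3 counts over the normoxia group. MT1X, on chromosome 16 from 56682424 to 56684196 of GRCh38 (plus strand), measured 6.58 and 7.68 CPM in normoxia and 519 and 503 CPM in the lactate group, and 37.7 and 39.03 CPM in hypoxia and 473 and 476 CPM with oxamate. Both of these drug groups lay far above hypoxia alone. The order between them depended on the processing, since the difference of 0.11 ± 0.033 from oxamate alone (edgeR adjusted p = 0.00742) was 0.05 with DESeq2 size factors, -0.08 with upper-quartile scaling, -0.0107 with a stricter filter and at most 0.0142 without either oxamate replicate. MT1E rose by 4.27 ± 0.041 and MT1F by 5.15 ± 0.081. These genes are near-identical copies, so how reads were divided among them is uncertain. SLC30A1, the zinc exporter of the plasma membrane, was named after its values were seen. It measured 7.81 and 7.30 CPM in normoxia and 217 and 227 CPM in the lactate group, and 9.77 and 9.78 CPM in hypoxia and 77.7 and 78.7 CPM with oxamate, and rose by 4.88 ± 0.057.

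The windows of MT1X and SLC30A1 are shown because transcription of both classes of gene is known to answer to zinc through metal response elements. This motif and these windows were chosen after both genes were seen to be higher. A match is a description of the sequence and says nothing of binding, and a role of zinc was not tested. The core was searched as TGCACNC or TGCGCNC on both strands and is in capitals. The MT1X window on the plus strand at chr16:56682220-56682423 holds 4 stretches, and the SLC30A1 window on the minus strand at chr1:211579162-211579411 holds 1. Such letters occur in 24.8% of all promoter windows of this length and in 31.3% of the windows of the matched tested genes.
MT1X: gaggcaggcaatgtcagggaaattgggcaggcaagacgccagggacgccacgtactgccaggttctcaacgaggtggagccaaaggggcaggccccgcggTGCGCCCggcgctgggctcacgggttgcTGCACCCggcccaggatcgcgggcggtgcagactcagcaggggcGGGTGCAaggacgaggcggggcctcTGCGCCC
SLC30A1: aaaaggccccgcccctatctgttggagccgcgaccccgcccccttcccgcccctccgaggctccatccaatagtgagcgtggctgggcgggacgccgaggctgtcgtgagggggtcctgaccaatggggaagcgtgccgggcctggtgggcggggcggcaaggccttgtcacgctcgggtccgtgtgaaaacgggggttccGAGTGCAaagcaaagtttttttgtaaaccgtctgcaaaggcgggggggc

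Stress and growth-arrest genes were more often higher than lower. Of 33 tested growth arrest and immediate early genes, 24 were higher and 5 lower than in normoxia, with a median of 1.34. GADD45A, a growth arrest gene of the DNA damage response, rose by 4.85 ± 0.042, DUSP10, a phosphatase of stress kinases, by 4.67 ± 0.042, and FOSL2, a subunit of AP-1, by 3.45 ± 0.042. EGR1, an immediate early transcription factor, fell (-2.72 ± 0.16), as did DUSP6, a feedback phosphatase of ERK (-2.11 ± 0.28). The same list gave 23 higher and 5 lower against oxamate alone, and 23 higher and 8 lower against hypoxia alone.

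The ATF4 program of amino acid stress split within itself. Of 26 tested members, 13 were higher and 8 lower, with a median of 0.48, and 11 and 11 with library totals (median 0.13). ATF3, a stress transcription factor, rose by 5.13 ± 0.04, PPP1R15A, which restores translation by dephosphorylating eIF2α, by 3.93 ± 0.034, and STC2, a secreted stanniocalcin, by 3.40 ± 0.057. PSAT1 of serine synthesis fell (-2.32 ± 0.048), as did SLC7A5, an amino acid transporter (-0.79 ± 0.029). Among 23 genes of the endoplasmic reticulum, 11 were higher and 4 lower with TMM, which turned to 5 and 16 with library totals and 9 and 11 with upper-quartile scaling. HERPUD1 and DNAJB9, both of protein clearance from that compartment, rose by 2.96 ± 0.048 and 2.93 ± 0.073, whereas the chaperone cofactors DNAJB11 and SDF2L1 fell (-1.03 ± 0.044 and -0.99 ± 0.12).

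**Figure D3:**
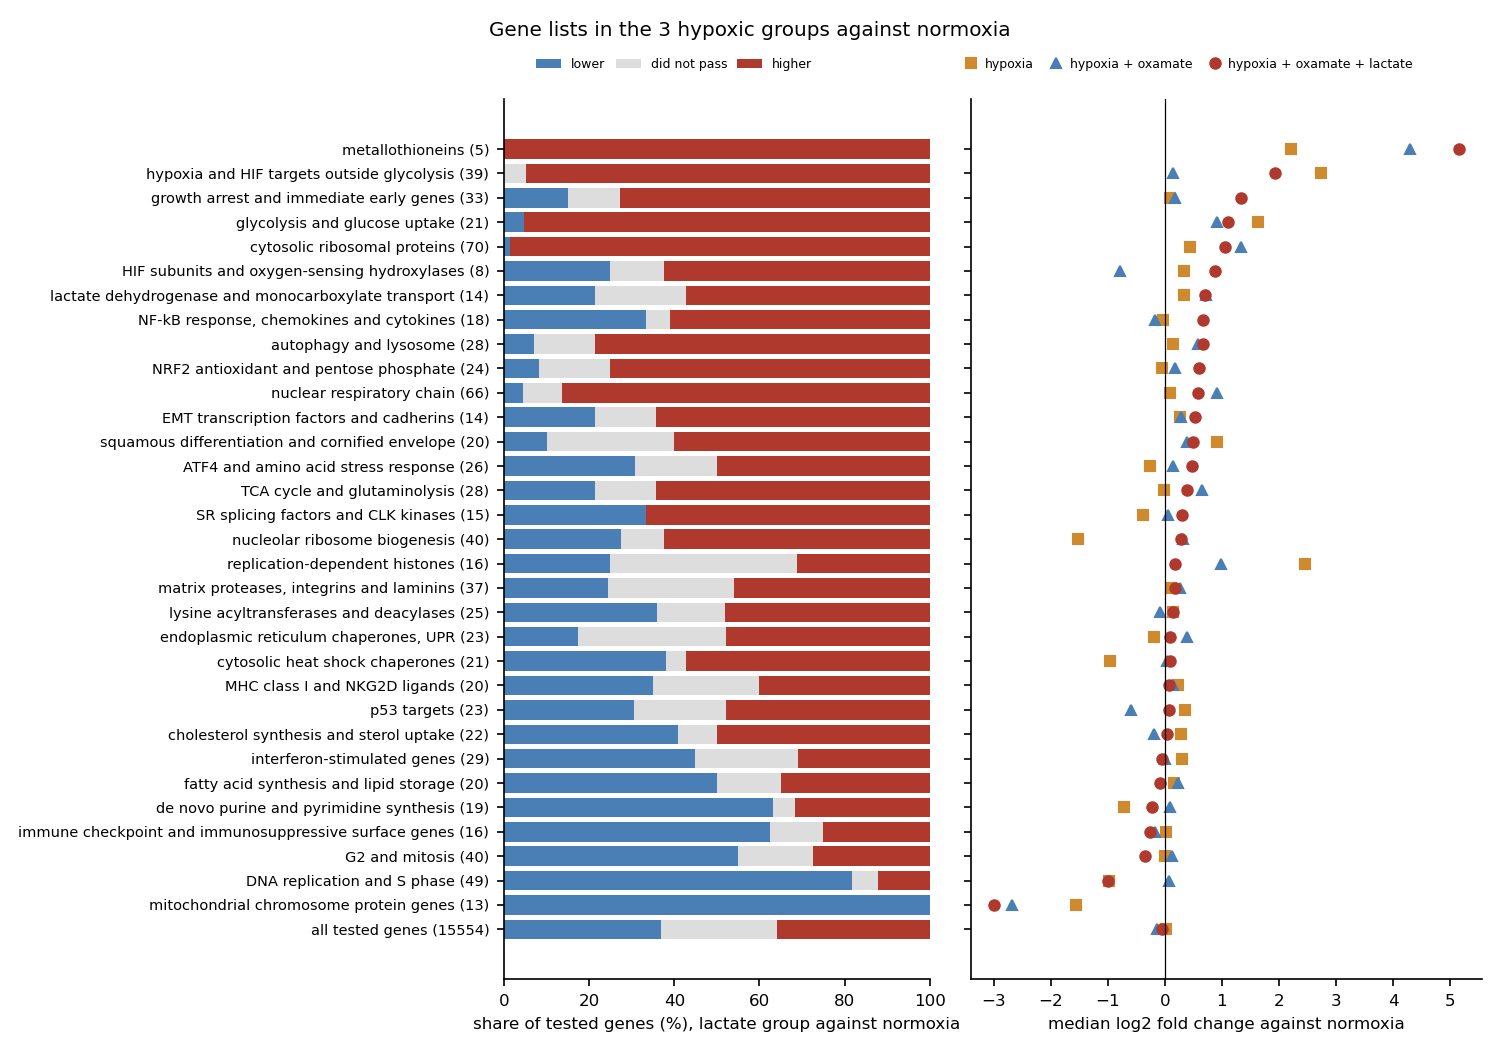
Left, share of the tested genes of each list that were lower, did not pass or were higher in the lactate group than in normoxia. Right, median log2 fold change of each list against normoxia in hypoxia, with oxamate, and with oxamate and lactate. Metallothioneins (fitted median) and hypoxia targets lie farthest right in the lactate group, mitochondrial chromosome genes and DNA replication farthest left.

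DNA replication genes were lower. Of 49 genes, 6 were higher and 40 lower than in normoxia, with a median of -0.998. PCNA, the sliding clamp of DNA polymerases, measured 263 and 267 CPM in normoxia and 39.7 and 41.9 CPM in the lactate group, and 103 and 112 CPM in hypoxia and 132 and 131 CPM with oxamate. Its log2 fold change was -2.70 ± 0.046 against normoxia, and the lactate libraries were below those of every other group, at -1.40 ± 0.048 against hypoxia alone and -1.69 ± 0.048 against oxamate alone. UHRF1, which guides maintenance of DNA methylation, fell (-2.22 ± 0.047), as did FEN1, the flap endonuclease (-2.13 ± 0.045). RFC2 of the clamp loader and POLD2 of polymerase delta were higher with TMM, at 0.33 and 0.29, and turned to -0.03 and -0.06 with library totals. Against oxamate alone, 48 of the 49 were lower and the other did not pass, with a median of -0.89. Against hypoxia alone the list was split, unlike PCNA, with 19 higher and 23 lower and a median of -0.18. Upper-quartile scaling gave 12 and 31 there, with a median of -0.44. The median against normoxia was -0.97 in hypoxia alone and 0.08 with oxamate alone, where the counts turned from 24 higher and 20 lower to 15 and 32 with library totals.

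Mitotic genes were divided. Of 40 genes of G2 and mitosis, 11 were higher and 22 lower, with a median of -0.34, and 5 and 31 with library totals. ASPM, a spindle pole protein, fell (-2.44 ± 0.072), as did the cyclin CCNA2 (-1.57 ± 0.047) and the kinase AURKA (-1.40 ± 0.048). CKS1B and CKS2, small subunits of cyclin-dependent kinases, rose by 1.12 ± 0.034 and 1.19 ± 0.041. In de novo purine and pyrimidine synthesis 6 of 19 genes were higher and 12 lower. UMPS and CTPS1, which make UMP and CTP, fell (-2.21 ± 0.065 and -1.91 ± 0.05), and the nucleotide kinase NME1 rose by 0.78 ± 0.035.

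Histone transcripts went in both directions against normoxia, and many were lower than in hypoxia alone. Of 16 tested members, 5 were higher and 4 lower than in normoxia with TMM, which turned to 3 and 5 with library totals and 3 and 4 with upper-quartile scaling. Against hypoxia alone 13 were lower and the other members did not pass, with a median of -2.04. H4C8 rose by 2.66 ± 0.23 and H2BC12 fell (-0.54 ± 0.068). Most of these messages lack a poly(A) tail and poly(A)-selected libraries hold only the tailed fraction.

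All 13 protein genes of the mitochondrial chromosome were lower in the lactate group, with a median of -2.99. MT-ATP6, a subunit of ATP synthase, measured 3830.4 and 3792 CPM in normoxia and 205 and 196 CPM in the lactate group, and 909.5 and 865 CPM in hypoxia and 171 and 178 CPM with oxamate. For MT-ATP6 the oxamate and lactate libraries were thus close to each other, and both lay below hypoxia alone. Over the 13 genes, 2 were higher, MT-ATP6 among them, and 10 lower than with oxamate alone, with a median of -0.45. All 13 were lower than in hypoxia alone, with a median of -1.57. MT-ATP6 fell (-4.25 ± 0.035), as did MT-CO3 of cytochrome oxidase (-4.13 ± 0.03) and MT-CYB of complex III (-3.28 ± 0.029). MT-ATP8 fell (-5.38 ± 0.053), with 22.2% of its bases inside MT-ATP6. Changes across the 13 genes ranged from -5.38 to -0.76, the latter for MT-ND4, a subunit of complex I chosen after its value was seen. Mitochondrial transcripts, ribosomal RNAs included, made up 5.74% and 5.73% of counts in normoxia and 2.14% and 2.09% in the lactate group. The protein genes alone took 5.12% and 5.12% in normoxia and 1.08% and 1.09% in the lactate group. The mitochondrial ribosomal RNAs did not move with them, at 0.620% and 0.615% of counts in normoxia and 1.06% and 1.00% in the lactate group. Whether capture by poly(A) bears on these shares was not tested.

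Respiratory genes of the nucleus moved the other way. Of 66 tested, 57 were higher and 3 lower, with a median of 0.57, and 42 and 12 with library totals (median 0.22). NDUFB9 of complex I rose by 1.12 ± 0.033, COX8A of complex IV by 1.14 ± 0.035 and ATP5F1B, the catalytic subunit of ATP synthase, by 1.00 ± 0.026. CYCS, which encodes cytochrome c, fell (-1.11 ± 0.035). Against oxamate alone 6 were higher and 54 lower. In the TCA cycle and glutaminolysis 18 of 28 genes were higher and 6 lower, which turned to 12 and 13 with library totals. MDH2, malate dehydrogenase of the mitochondrion, rose by 0.82 ± 0.029, and IDH1, the cytosolic isocitrate dehydrogenase, fell (-0.65 ± 0.037).

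**Figure D4:**
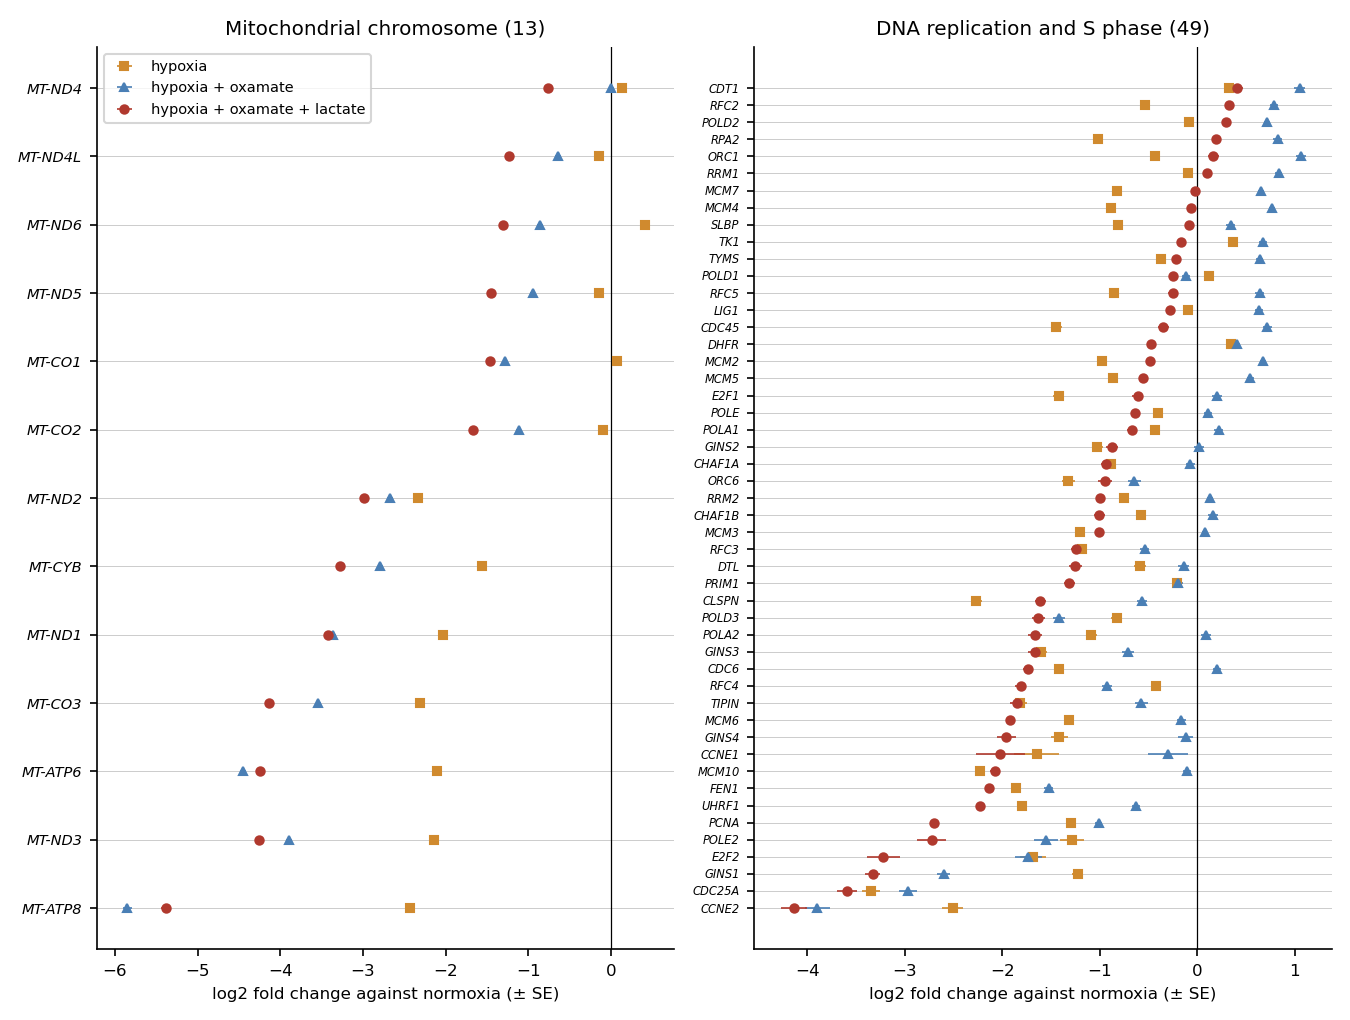
Log2 fold change against normoxia with its standard error for the 13 protein genes of the mitochondrial chromosome and 49 DNA replication genes in the 3 hypoxic groups. All 13 mitochondrial genes and 40 of the 49 replication genes were lower in the lactate group.

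Cytosolic ribosomal proteins were higher as a family. Of 70 genes, 69 were higher and 1, RPL6 at -0.29 ± 0.029, was lower, with a median of 1.05. RPL12 rose by 1.39 ± 0.026, RPL3 by 1.29 ± 0.025 and RPL13A by 1.24 ± 0.025. Ribosomal proteins took 5.94% and 6.02% of counts in normoxia and 9.52% and 9.36% in the lactate group, against 11.2% and 11.3% with oxamate alone. Many have processed copies in the genome, and how reads were divided among them is uncertain. All 70 were lower than with oxamate alone, with a median of -0.29.

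Nucleolar and chaperone genes had larger medians against hypoxia alone than against normoxia. Of 40 nucleolar genes of ribosome assembly, 39 were higher than in hypoxia alone and the other did not pass, with a median of 1.62. Against normoxia 25 were higher and 11 lower with TMM, which turned to 16 and 20 with library totals. NOB1, an endonuclease of ribosome maturation, rose by 1.65 ± 0.032 and POLR1A, the large subunit of RNA polymerase I, fell (-1.50 ± 0.049). Of 21 heat shock chaperone genes, 19 were higher and 1 lower than in hypoxia alone. Against normoxia 12 were higher and 8 lower, turning to 7 and 13 with library totals and 9 and 9 with upper-quartile scaling. FKBP4, a cochaperone of HSP90, rose by 0.91 ± 0.03, and DNAJA1, a cochaperone of HSP70, fell (-1.77 ± 0.042).

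Antioxidant and autophagy genes were mostly higher. Of 24 tested NRF2 and pentose phosphate genes, 18 were higher and 2 lower, with a median of 0.59. GCLC, the rate-limiting enzyme of glutathione synthesis, rose by 1.88 ± 0.037, thioredoxin reductase TXNRD1 by 1.61 ± 0.035 and the ferritin light chain FTL by 1.74 ± 0.033. PRDX1, a peroxiredoxin, fell (-0.56 ± 0.032), as did SRXN1, which repairs peroxiredoxins (-0.49 ± 0.04). In autophagy and lysosome 22 of 28 were higher and 2 lower. The cargo receptor SQSTM1 rose by 1.61 ± 0.031, GABARAPL1, an ATG8 protein of the autophagosome, by 2.25 ± 0.046 and ATG14, a subunit of the initiating lipid kinase, by 2.38 ± 0.082. Among p53 targets 11 of 23 were higher and 7 lower with TMM, turning to 9 and 11 with either library totals or upper-quartile scaling. TNFRSF10B, a death receptor for TRAIL, rose by 1.82 ± 0.04. XPC fell (-1.11 ± 0.07), as did TIGAR (-2.20 ± 0.13), with 42.6% of its exon bases shared with a more abundant gene on the same strand.

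CD274 encodes PD-L1, a ligand that restrains T cells, and was higher than in normoxia. It measured 20.2 and 19.977 CPM in normoxia and 50.9 and 47.9 CPM in the lactate group, and 14.4 and 14.3 CPM in hypoxia and 40.3 and 44.1 CPM with oxamate. The normoxia and hypoxia libraries were lower than those of both drug groups. CD274 rose by 1.296 ± 0.066 against normoxia (edgeR adjusted p = 5.22e-14) and 1.79 ± 0.069 against hypoxia alone. Its difference from oxamate alone, 0.23 ± 0.061, passed with TMM (edgeR adjusted p = 0.00252). That call was lost with upper-quartile scaling (0.0353, adjusted p = 0.631), with a stricter filter (0.109, adjusted p = 0.109), in DESeq2 (0.171, adjusted p = 0.113) and without oxamate replicate 1 (0.0627, adjusted p = 0.478). Of the 16 tested genes of its list, CD274 included, 4 were higher and 10 lower. TNFSF9, a ligand that costimulates T cells, rose by 1.49 ± 0.081. CD47, which inhibits phagocytosis, fell (-1.12 ± 0.057), as did PVR, a ligand of TIGIT (-0.46 ± 0.04) and ENTPD1, an ectoenzyme that degrades ATP (-1.73 ± 0.13).

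Antigen presentation and interferon genes were mixed. For MHC class I and NKG2D ligands 8 of 20 were higher and 7 lower with TMM, turning to 5 and 10 with library totals and 7 and 10 with upper-quartile scaling. B2M, the light chain of these molecules, rose by 1.03 ± 0.036, while TAPBP, which loads peptides, fell (-1.31 ± 0.077). Of 29 interferon-stimulated genes, 9 were higher and 13 lower. ISG15, a ubiquitin-like modifier, rose by 1.64 ± 0.074 and SAMD9, an antiviral factor, fell (-2.65 ± 0.05). In the NF-kB list 11 of 18 were higher and 6 lower. The members of smallest p included feedback inhibitors of the pathway, of which TNFAIP3 rose by 3.71 ± 0.068 and NFKBIA by 1.89 ± 0.064.

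Epithelial and matrix lists had more members higher than lower with TMM. Of 37 matrix proteases, integrins and laminins, 17 were higher and 9 lower with TMM, turning to 13 and 17 with library totals. PLAUR, the urokinase receptor, rose by 1.56 ± 0.052. For EMT factors and cadherins 9 of 14 were higher and 3 lower. SNAI2, a repressor of epithelial genes, rose by 1.56 ± 0.047 and OVOL1, which maintains epithelial identity, by 4.10 ± 0.13, 2 members of opposite function. In squamous differentiation 12 of 20 were higher and 2 lower. The desmosomal cadherins DSC2 and DSG3 rose by 2.02 ± 0.053 and 1.37 ± 0.047, and KRT13, a keratin of the stratified esophagus, fell (-1.27 ± 0.084).

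Lipid synthesis genes showed no common direction. In cholesterol synthesis and sterol uptake 11 of 22 were higher and 9 lower with TMM, turning to 7 and 13 with library totals and 8 and 11 with upper-quartile scaling. INSIG1, a brake on sterol synthesis, rose by 1.52 ± 0.073 and FDPS, which makes farnesyl pyrophosphate, fell (-1.05 ± 0.045). In fatty acid synthesis and storage 7 of 20 were higher and 10 lower. ELOVL6, an elongase of saturated fatty acids, fell (-3.00 ± 0.071).

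Enzymes that attach or remove lysine acyl groups were divided. Of 25 genes, 12 were higher and 9 lower, turning to 11 and 12 with library totals. HDAC5 rose by 2.55 ± 0.068, the sirtuin SIRT1 by 1.71 ± 0.056 and the acetyltransferase KAT7 by 1.02 ± 0.042. HDAC2 and HDAC1, class I deacetylases, fell (-0.85 ± 0.045 and -0.77 ± 0.039). For splicing, 10 of 15 SR factors and CLK kinases were higher and 5 lower, turning to 5 and 7 with library totals. The kinases CLK1, CLK3 and CLK4, which phosphorylate SR proteins, rose by 2.96 ± 0.05, 2.93 ± 0.047 and 1.51 ± 0.062, and their substrate SRSF1 fell (-2.63 ± 0.043).

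Under the same limit on level as the decreases below, the largest increases included a clock gene, a stress cytokine and a factor of epidermal differentiation. PER1 measured 2.68 and 2.97 CPM in normoxia and 415 and 439 CPM in the lactate group, and 86.4 and 79.5 CPM in hypoxia and 50.6 and 53.5 CPM with oxamate, a log2 fold change of 7.23 ± 0.07. The lactate libraries were the highest of all groups, at 2.36 ± 0.043 against hypoxia alone and 3.04 ± 0.046 against oxamate alone. ARRDC3, an arrestin-domain adaptor protein, is given here for its difference from oxamate alone, 4.84 ± 0.053, and not as one of the largest increases against normoxia. It measured 12.3 and 12.6 CPM in normoxia and 327 and 311 CPM in the lactate group. GDF15, a stress cytokine, measured 2.19 and 3.45 CPM in normoxia and 104 and 121 CPM in the lactate group, and 4.45 and 4.01 CPM in hypoxia and 16.5 and 15.1 CPM with oxamate, and rose by 5.29 ± 0.13. GRHL3, a transcription factor of epidermal differentiation, had 441 counts in the lactate group and 8 in normoxia, a scaled ratio of 73.0 (95% exact binomial interval 36.7 to 170.1). F8A2 had 123 counts in the lactate group and 0 in normoxia and hypoxia. Against an assumed 3 counts over the group, it was 54.3-fold higher than normoxia and 53.7-fold higher than hypoxia. The lower 95% exact binomial limits, at the observed 0 counts, were 43.5 and 43.0. It has near-identical copies that make it uncertain.

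The decreases named here are the largest among genes that passed, averaged 1 or more in log2 CPM and did not overlap between the 2 groups, and some genes of lower level had larger fitted changes. Apart from MT-ATP8, they were under 100 CPM in normoxia. PRMT6, an arginine methyltransferase of histones, measured 62.7 and 62.3 CPM in normoxia and 1.73 and 1.83 CPM in the lactate group, and 8.69 and 9.47 CPM in hypoxia and 8.52 and 8.74 CPM with oxamate. It fell (-5.12 ± 0.10), with the lactate libraries the lowest of all groups, -2.27 ± 0.14 against oxamate alone. FAM111B, a protease, fell (-4.52 ± 0.11) from 55.1 and 52.4 to 2.29 and 2.36 CPM. ATPSCKMT, a methyltransferase of the mitochondrion, fell (-4.93 ± 0.18), as did LCMT2, which modifies transfer RNA (-4.43 ± 0.20). RTN4IP1, of coenzyme Q synthesis, had 699 counts in normoxia and 19 in the lactate group, a scaled ratio of 27.8 (17.7 to 46.4). The long noncoding RNA PRECSIT had 714 and 10 counts, a ratio of 53.9 (29.2 to 113). B3GALT9 at -4.78 ± 0.25 and LNP1 at -4.34 ± 0.30 overlap the more abundant FBXW2 and TOMM70 on the other strand and are uncertain. Set against oxamate alone, PRMT6, FAM111B, ATPSCKMT, PRECSIT and LNP1 were lower in the lactate group. MT-ATP8 was higher (0.46), and RTN4IP1, LCMT2 and B3GALT9 did not pass.

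The largest differences from the other hypoxic groups, under that limit, were partly of other genes. Against hypoxia alone, MMP3, a stromelysin that degrades matrix, had 990 counts in the lactate group and 13 in hypoxia, a ratio of 99.7 (58.1 to 188.0), and KBTBD8, a substrate adaptor of ubiquitin ligases, 393 and 10 counts, a ratio of 51.5 (27.7 to 108.2). Against oxamate alone, GNRH1, the gonadotropin-releasing hormone, had 204 and 6 counts, a ratio of 38.9 (17.6 to 107.2), and TCP11L2 had 327 and 15, a ratio of 24.9 (14.9 to 45.0). MIR23AHG, the host transcript of a microRNA cluster, differed from oxamate alone by 4.28 ± 0.17. These ratios cover counting error only. The selection also held decreases. Against hypoxia alone, C11orf71 (-4.96 ± 0.29), PRECSIT (-4.89 ± 0.26), BLACAT1 (-4.82 ± 0.17) and HCG4 (-4.82 ± 0.17) were lower. C11orf71 and HCG4 overlap the more abundant RBM7 and HLA-V on the other strand and are uncertain. Against oxamate alone, PRMT6 (-2.27 ± 0.14) was among the decreases.

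Classes of gene, set up after values were seen, were also unevenly placed. Of 193 protein-coding genes with 1 exon outside the mitochondrial chromosome, 32 were higher and 117 (60.6%) lower than in normoxia, with a median of -1.12. The median against normoxia was -0.33 in hypoxia alone and -1.35 with oxamate alone. Set against oxamate alone, 70 were higher and 50 lower in the lactate group, with a median of 0.09. Upper-quartile scaling gave 63 and 62 there, with a median of -0.10. Without the histone list, 183 such genes had a median of -1.23. Protein-coding genes with over 1 exon numbered 12162, of which 4949 were higher and 4525 lower, a balance that turned with upper-quartile scaling and library totals. Among 682 long intergenic noncoding RNAs 96 (14.1%) were higher and 256 (37.5%) lower. Their median was -0.61 against 0.78 in hypoxia alone and -0.81 with oxamate alone. Antisense RNAs gave 130 higher (12.9%) and 365 lower (36.3%) of 1006, with medians of -0.69, 0.45 and -0.55 in the same order. Over all tested genes 35.9% were higher and 36.8% lower. The lower shares of both classes were thus near that of all genes, and the higher shares were smaller. In these classes 330 and 511 genes did not pass, and median levels were -0.28 and -0.37 in log2 CPM against 4.14 for all tested genes. Processed pseudogenes, which include copies of ribosomal protein genes, were 132 higher and 35 lower of 309, and reads shared with their parents make them uncertain. The share of counts from long intergenic and antisense RNAs was 0.646% and 0.651% in normoxia, 0.907% and 0.906% in hypoxia and 0.545% and 0.515% in the lactate group.

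**Figure D5:**
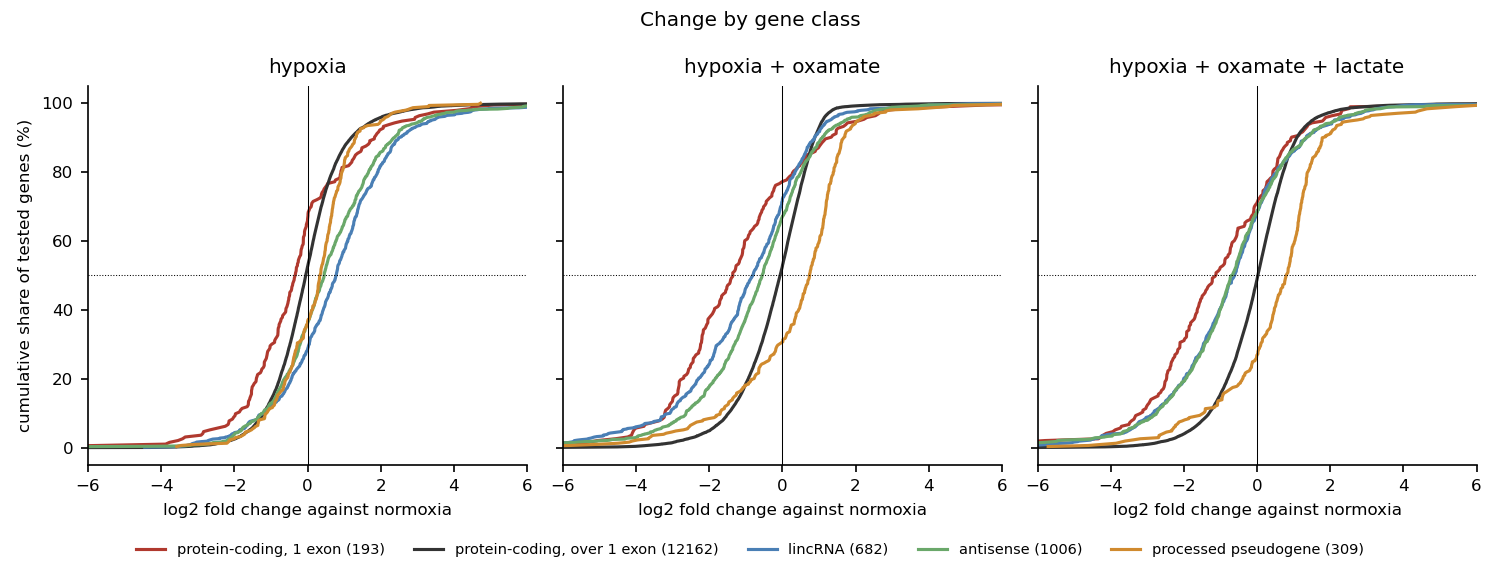
Cumulative share of genes by log2 fold change against normoxia for 5 gene classes, in 3 panels for hypoxia, oxamate, and oxamate with lactate. In the lactate panel the curve of protein-coding genes with 1 exon (median -1.12) lies left of that with over 1 exon (median 0.02), and that of long intergenic noncoding RNAs has a median of -0.61.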

How the data were processed

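The authors deposited whole-number counts per gene, with no normalization. Per the submitters' processing notes, the tools were STAR 2.7.8a, RSEM 1.3.3 and FastQC 0.11.9, and the builds named are GRCh38 and hg38. Whether the counts are rounded RSEM estimates, and whether counting used strand, is not given in the sources used here. Columns were matched to samples by the column names that the labels give.

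Genes were kept by filterByExpr (minimum count 10 over the 4 groups). Counts were scaled by TMM and fitted for all 8 libraries with the robust quasi-likelihood model of edgeR 4.0.16 in R 4.3.3, which leaves 4 residual degrees of freedom. Tests were two-sided with Benjamini-Hochberg adjustment over the 15554 genes, with 0.05 as the limit for passing. Standard errors were taken as the log2 fold change divided by the square root of F. The edgeR fit, tested on simulated data of 15254 genes for the lactate group against normoxia, recovered 59.7% of 1.5-fold, 82.1% of 2-fold and 95.5% of 4-fold changes, and 14 of 172 calls were false. The simulation changed 67, 67 and 66 genes by these folds and left the rest at their normoxia level. In the data 11308 of the 15554 genes passed, so these rates need not hold for the real comparison. Annotation was GENCODE 29.

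Named genes were those of lactate metabolism, HIF and CD274, the 10 largest increases and decreases against normoxia (limited to genes that passed, averaged 1 or more in log2 CPM, did not overlap between the 2 groups and had a symbol that is not clone-based), 3 passing members of smallest p in the direction of each list's median and 2 in the other, and the 4 largest differences in each direction from each other hypoxic group under the same limits. Not every gene of the rule is named. The lists and the genes were chosen with earlier results of these data known. Alternatives were other scalings (DESeq2 size factors, upper quartile, library totals), other filters, DESeq2 1.42.0 as the tool, testing for changes beyond 1.5-fold, a fit of the 2 groups alone, a replicate block and leaving out each replicate.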

Additional observations from a re-analysis of the deposited data

How the results depend on the processing

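Against normoxia the call count of 11308 ranged from 10086 (DESeq2) to 11778 (library totals) over the scalings, filters and tools, but the test against a 1.5-fold change called 5983 genes, 2767 higher and 3216 lower. That test called 7398 genes against hypoxia alone and 3818 against oxamate alone. With library totals 3659 genes were higher than in normoxia, and with upper-quartile scaling 41.2% of calls were higher, against 49.43% with TMM. Against hypoxia alone the share of higher calls was 48.92% with TMM, 37.84% with upper-quartile scaling and 36.67% with library totals, and against oxamate alone 51.15%, 39.56% and 53.47%. The last balance also turned with DESeq2 size factors in edgeR (47.44%), DESeq2 (48.23%), a stricter filter (43.31%) and without oxamate replicate 1 (45.14%) or 2 (45.38%).

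With library totals EP300 turned to -0.16, POLD2 to -0.0587 and RFC2 to -0.0272, and the number of higher members fell below that of lower ones for lysine acyl enzymes (11), nucleolar genes (16), heat shock (7), endoplasmic reticulum (5), histones (3), TCA cycle (12), cholesterol (7), p53 targets (9), MHC class I (5), matrix (13) and SR factors (5). With upper-quartile scaling this held for endoplasmic reticulum (9), histones (3), cholesterol (8), p53 targets (9) and MHC class I (7). Histones had 3 higher members with a stricter filter, without normoxia replicate 2 and without replicate 2 of the lactate group. Cholesterol had 9 without a filter, 4 in the 1.5-fold test and 8 without replicate 1 of the lactate group. For genes set against the other hypoxic groups, an addition made after seeing the data, MT1X against oxamate alone turned to -0.0843 with upper-quartile scaling and -0.0107 with the stricter filter. The cause was not tested.

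Leaving out 1 replicate gave 10386 to 10953 calls against normoxia, 11449 to 11930 against hypoxia alone and 9487 to 9780 against oxamate alone. The replicate numbers did not pair the libraries (correlations of -0.0502 to 0.0118 between same-numbered libraries), and the replicate block gave 11213, 12146 and 9981 calls. With 2 libraries a group, small changes are those the depth and the spread show least well.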

Other observations

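A few genes outside the lists stood out after their values were seen. NR1D1, a circadian repressor that acts beside PER1 in the clock, measured 5.32 and 5.22 CPM in normoxia and 139 and 157 CPM in the lactate group and differed from normoxia by 4.81 ± 0.085. CCNG2, a cyclin of growth arrest, measured 8.37 and 8.60 CPM in normoxia and 260.4 and 259 CPM in the lactate group and rose by 4.93 ± 0.051. CREBRF, a regulator of the stress-activated factor CREB3, measured 4.84 and 5.31 CPM in normoxia and 149.9 and 151 CPM in the lactate group and rose by 4.88 ± 0.079. DUSP8, a phosphatase of stress kinases, rose by 4.44 ± 0.22. In the other direction, 3 enzymes of membrane anchors and glycan donors were lower. PIGM and PIGW, which build the glycosylphosphatidylinositol anchor, fell (-4.21 ± 0.16 and -3.99 ± 0.094), as did DOLK, which makes dolichol phosphate (-4.26 ± 0.19). The exons of PIGM and DOLK cover the whole gene without an intron, and 60.6% of protein-coding genes with 1 exon were lower. With oxamate alone these enzymes were also below normoxia (PIGM -4.10, PIGW -3.34, DOLK -3.38). PIGM did not differ from oxamate alone (-0.11, edgeR adjusted p = 0.745). For PIGW 20.8% of its exon bases overlap the more abundant MYO19 on the other strand, so it is uncertain. All genes named in this paragraph for their change from normoxia passed that comparison in edgeR at an adjusted p under 0.05.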
